A study of Mus musculus with 4 samples.

Results

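The genes examined were 7 genes of the major histocompatibility complex (MHC) class II pathway: H2-Aa, H2-Ab1, H2-Eb1, H2-DMa, H2-DMb1, Cd74 and Ciita. They were chosen by symbol, and all 7 were found among the 52636 gene IDs of the deposited matrices. Glomeruli, the capillary filters of the kidney, had been pulled out of mouse kidneys with magnetic beads and digested to single cells. There were 2 libraries from young mice and 2 from aged mice, none of them treated, and the labels name no deletion or transgene in either group. The labels do not give the age in months, the strain, the sex or the number of mice behind a library. All p-values therefore measure the spread between libraries, which may be technical. Each library was a table of unique molecular identifiers (UMIs), that is, counted RNA molecules, per gene and cell.

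Class II molecules are pairs of an alpha and a beta chain that hold peptides from engulfed proteins on the cell surface and show them to CD4 T cells. H2-Aa and H2-Ab1 encode the chains of I-A, and H2-Eb1 the beta chain of I-E. Cd74, the invariant chain, fills the peptide groove while a new molecule travels to the endosome, and the H2-DM dimer of H2-DMa and H2-DMb1 then swaps the remaining fragment for a peptide. Ciita, the class II transactivator, binds no DNA itself and joins the factors RFX, NF-Y and CREB on the X and Y boxes of class II promoters. Dendritic cells, B cells and macrophages carry these genes at rest, and interferon gamma can turn them on in other cells, endothelium among them.

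In the GENCODE annotation of the GRCm38 build, all 7 are protein-coding genes. Of the 7, 5 lie close together on chromosome 17: H2-DMa at 34119541 to 34139101, H2-DMb1 at 34153072 to 34160230, H2-Ab1 at 34257689 to 34269419 and H2-Eb1 at 34305867 to 34316674 on the plus strand, and H2-Aa at 34282744 to 34287823 on the minus strand. Ciita lies on chromosome 16 at 10480059 to 10528418 on the plus strand. H2-DMa overlaps Brd2, CR974462.4 and Gm20493 on the other strand and CR974462.3 on its own strand. H2-Eb1 overlaps Gm20513, and Ciita overlaps Dexi, each on the other strand. Cd74 overlaps Mir5107 on its own strand. H2-DMb1 has a near-identical neighbour, H2-DMb2, at 34143307 to 34151555 on chromosome 17, so the split of reads between these 2 genes is uncertain.

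The RefSeq promoter table (GRCm38.p6) held entries for 4 of the 7 genes. The 150 bases before the start of 3 of them are shown because they carry the letters of both boxes, which are in capitals: X box letters searched as CTNGNAAC and Y box letters as TGATTGG.
H2-Aa (chr17:34287824-34287973, minus strand): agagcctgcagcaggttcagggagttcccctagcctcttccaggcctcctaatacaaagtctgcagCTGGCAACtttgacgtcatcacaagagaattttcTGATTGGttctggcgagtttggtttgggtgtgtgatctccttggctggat
H2-Eb1 (chr17:34305717-34305866, plus strand): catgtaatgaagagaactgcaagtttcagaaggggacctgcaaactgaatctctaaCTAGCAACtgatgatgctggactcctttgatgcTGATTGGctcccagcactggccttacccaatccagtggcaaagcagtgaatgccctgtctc
H2-DMb1 (chr17:34153041-34153190, plus strand): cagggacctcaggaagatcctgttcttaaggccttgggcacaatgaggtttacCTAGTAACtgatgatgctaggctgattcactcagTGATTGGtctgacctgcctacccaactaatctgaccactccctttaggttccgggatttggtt
The X letters began 84 bases before the start in H2-Aa, 94 in H2-Eb1 and 97 in H2-DMb1, and were followed by the Y letters after 26, 25 and 26 bases. On either strand, 13.2% of the 32851 promoters in the table held the X letters within their 300 bases and 7.82% the Y letters. The X letters followed by the Y letters on the same strand within 5 to 40 bases were found in 31 promoters (0.0944%) of 28 genes, 4 of them class II genes (these 3 and H2-Ob), and another of them Rfx5, a subunit of RFX. The letters were chosen with these promoters in view, so their presence is a description. GENCODE places the first base of H2-DMb1 inside the stretch shown. H2-DMa, the remaining gene with entries, held neither set of letters at its 2 start sites.

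The matrices held 33323 cell barcodes, with 18457791 to 42046542 UMIs per library, and 28000 cells were kept. Young replicate 2 stood apart: its median was 1258 UMIs per cell against 2715 to 3732 in the other libraries, and 64.5% of its cells could not be given a cell class against 3.69% to 5.20%. Pairs of libraries shared 9 to 31 barcodes. Classes were set from marker genes that include none of the 7. Macrophages were nearly confined to the aged libraries, with 562 and 493 cells against 3 and 17 in the young ones, so their levels could not be tested for age. The same holds for dendritic cells, with 85 and 53 aged against 17 and 10 young cells. In the pooled cells of a library, more cells of a type and more RNA per cell cannot be told apart.

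All 7 genes were higher in both aged libraries than in both young ones when every cell of a library was summed. The summed level of H2-Aa, H2-Ab1, H2-Eb1 and Cd74, in CPM (the UMIs of a gene scaled to a fixed total of UMIs in the library or class), was 611 and 845 in young replicates 1 and 2 and 5471 and 4204 in aged replicates 1 and 2. The aged mean of 4837 ± 896 (SD, n = 2) was 6.64 times the young mean of 728 ± 165 (SD, n = 2). An exact 2-sided permutation test gave p = 0.333, the smallest value that 2 against 2 libraries allow. By the quasi-likelihood test of edgeR over all genes, 7 of the 7 genes rose at an adjusted p under 0.05, whereas 11.8% of all 16496 genes tested were called higher and 20.3% were called in either direction. Of all genes tested, 32.1% had both aged libraries above both young ones. Without young replicate 1 or young replicate 2, 6 of the 7 were called, and H2-DMb1 was not (edgeR adjusted p = 0.060 and 0.065).

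Cd74 (chromosome 18 at 60803848 to 60812652, plus strand) counted 284 and 379 CPM in young and 2624 and 2141 CPM in aged libraries (log2 fold change 2.97 ± 0.17 SE, edgeR adjusted p = 0.00073). Of the I-A and I-E chain genes among the 7, H2-Eb1 rose most, from 83.1 and 125 to 867 and 651 CPM (2.99 ± 0.22, edgeR adjusted p = 0.0012). H2-Aa and H2-Ab1 rose by 2.71 and 2.62 on the log2 scale. H2-DMa rose by 2.29. H2-DMb1 rose less, by 1.20 ± 0.18 (edgeR adjusted p = 0.0060), from 43.3 and 39.2 to 102 and 72.7 CPM. Ciita, the regulator, stood at 0.152 and 0.925 CPM (3 and 15 UMIs) in young and 4.30 and 3.35 CPM (149 and 124 UMIs) in aged libraries (3.01 ± 0.55, edgeR adjusted p = 0.013). All 8 genes of a leukocyte list (Ptprc, Laptm5, Tyrobp, Fcer1g, Lyz2, Coro1a, Cd52 and Cytip) rose in the same test, with a median log2 fold change of 1.71.

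The UMIs sat in different cells at the 2 ages. Of the summed UMIs of H2-Aa, H2-Ab1, H2-Eb1 and Cd74, macrophages held 4.96% and 16.2% at the young age and 73.0% and 75.3% at the older age. B cells held 34.7% and 19.2% in young and 2.31% and 1.73% in aged libraries. The dendritic share was 35.7%, 14.2%, 14.0% and 12.6% in young replicates 1 and 2 and aged replicates 1 and 2, so only young replicate 1 stood apart. Endothelial cells, which made up 19.3% to 65.5% of cells, held 1.17% and 1.57% in young and 0.668% and 0.637% in aged libraries. Podocytes held 0.0488% to 0.241%. Cells without a class held 14.2% and 34.9% in young and 5.36% and 4.64% in aged libraries.

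**Figure D1:**
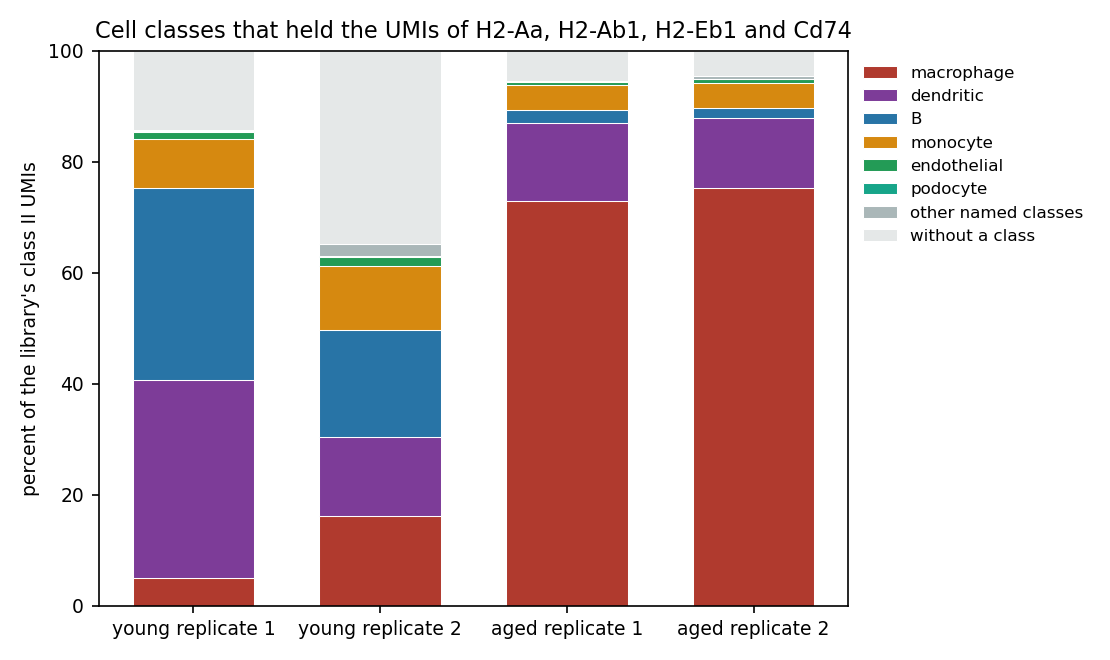
Share of each library's summed UMIs of H2-Aa, H2-Ab1, H2-Eb1 and Cd74 held by each cell class, in percent (stacked bars, 1 bar per library). Macrophages fill 73.0% and 75.3% of the aged bars and 4.96% and 16.2% of the young ones.

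Within the antigen-presenting classes the level per cell type was high at both ages. Dendritic cells were highest in each library but 1, with a summed level of the 4 genes of 55579 and 44361 CPM in young and 60407 and 53018 CPM in aged libraries; the exception was young replicate 1, where 3 macrophages gave 76558 CPM. Aged macrophages stood at 40413 and 24083 CPM. The aged libraries differed here: the median aged macrophage held 410 class II UMIs per 10000 in replicate 1 and 240 in replicate 2. B cells stood at 30218 and 24817 CPM in young and 31300.0 and 29130.0 CPM in aged libraries, with overlapping groups. Monocytes ranged widely, with 3892 and 6285 CPM in young and 11621 and 5552 CPM in aged libraries, and their groups overlapped too. Dendritic cells and macrophages did not keep 1 order across libraries, and macrophages of aged replicate 2 lay below the B cells of that library.

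No class II gene was called for age in B cells or monocytes. In B cells, 0 of 6 genes tested passed in edgeR, beside 0% of 1834 genes (179 had an unadjusted p under 0.05 and DESeq2 also called 0), and the log2 fold changes lay between -0.19 for H2-DMb1 and 0.18 for Cd74, with SEs of 0.20 to 0.35. In monocytes, 0 of 6 passed in edgeR, beside 1.7% of 5130 genes, although 3 of the 6 had an unadjusted p under 0.05; DESeq2 called 0 and had 1 such gene. H2-Eb1 there counted 341 and 659 CPM in young and 1579 and 683 CPM in aged libraries (log2 fold change 1.21 ± 0.36 SE, edgeR adjusted p = 0.13). The groups did not overlap, but aged replicate 2 lay next to young replicate 2.

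**Figure D2:**
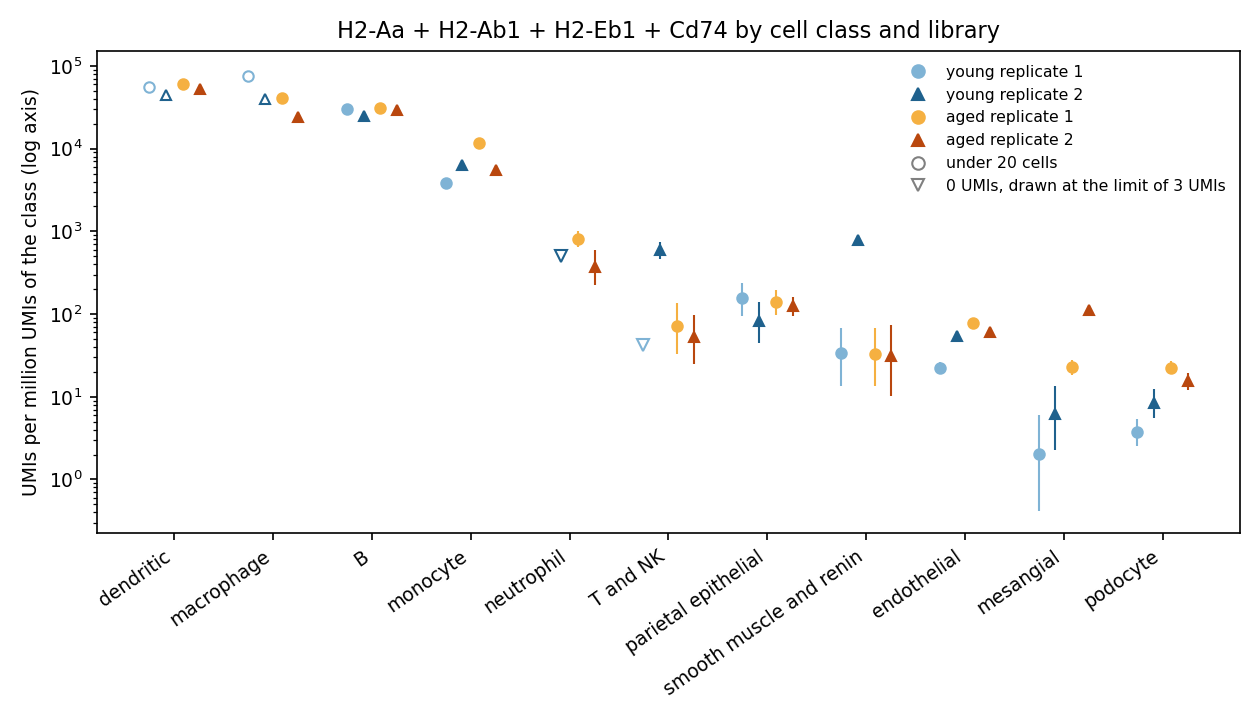
Summed level of H2-Aa, H2-Ab1, H2-Eb1 and Cd74 by cell class (x axis) and library (colours), in CPM of the class on a log axis; bars are exact 95% Poisson intervals and open symbols mark fewer than 20 cells or 0 UMIs. Dendritic cells, macrophages and B cells lie at 24083 CPM or above, and endothelial cells and podocytes at 78.5 CPM or below.

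Podocytes, the epithelial cells that wrap the capillaries, carried 1 class II gene at a level of its own, H2-DMb1. It counted 85.7 and 67.9 CPM in young and 108 and 102 CPM in aged podocytes, from 217 to 662 UMIs per library. The groups did not overlap, and H2-DMb1 rose 1.40-fold (log2 fold change 0.49 ± 0.14 SE, edgeR adjusted p = 0.033). This call was lost with DESeq2 (adjusted p = 0.19), without young replicate 2 (edgeR adjusted p = 0.098), without aged replicate 1 or 2 (0.43 and 0.33), with mixed cells kept (0.069) and without cells that held a leukocyte UMI (0.067), at a log2 fold change of 0.32 to 0.52. Unlike the other class II genes, it was spread over many cells: 30.0% and 30.8% of young and 42.2% and 52.1% of aged podocytes had a UMI, and 7.84%, 7.23%, 12.3% and 10.3% after each cell was thinned to 1000 UMIs. No more than 2 podocytes of any library had 5 or more H2-DMb1 UMIs. Both podocyte clusters carried it, at 61.0 to 106 CPM in the larger and 86.5 to 127 CPM in the smaller. The level was 45.0% to 94.1% of that in B cells of the same library and 17.7% and 31.5% of that in aged macrophages. The B cell values rest on few counts, 21 and 16 UMIs in young and 22 and 10 UMIs in aged libraries.

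Its partner chain was nearly missing there. H2-DMa counted 0.647 and 0.938 CPM in young and 2.16 and 1.22 CPM in aged podocytes, too few for the filter on low counts, and the near-copy H2-DMb2 had 0 UMIs in podocytes of all 4 libraries. Of all H2-DMb1 UMIs, podocytes held 77.6% and 34.2% at the young age against 17.1% and 18.6% later. H2-DMb1 was lower in endothelial cells than in podocytes by 5.40 ± 0.21 (SE) on the log2 scale and lower in mesangial cells by 6.62 ± 0.33, within libraries (edgeR with library as a block, adjusted p = 1.7e-09 and 4.3e-09). A class difference by itself was common, called for 79.1% of 12994 genes between endothelial cells and podocytes and for 70.4% of 12387 genes between mesangial cells and podocytes. The difference from endothelial cells was 5.63 after cells with any leukocyte UMI had been left out of both classes.

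The other class II genes of podocytes were close to 0 at both ages. Cd74 counted 1.29 and 3.75 CPM in young and 9.56 and 6.52 CPM in aged podocytes, from 10, 12, 53 and 32 UMIs. The groups did not overlap, and Cd74 rose 3.97-fold (edgeR adjusted p = 0.00093). H2-Aa rose from 0.518 and 1.88 to 4.87 and 2.85 CPM (4.19-fold, edgeR adjusted p = 0.014), and H2-Ab1 from 1.04 and 0.938 to 4.51 and 4.08 CPM (4.33-fold, adjusted p = 0.0039). H2-Eb1, at 0.906 and 1.88 against 3.61 and 2.04 CPM, did not pass (edgeR adjusted p = 0.18). Of the 5 genes tested, 4 were called higher, beside 4.22% of 10836 genes (6.48% in either direction), with a median log2 fold change of 1.99 against 0.0037 over all genes. DESeq2 called 0 of the 5, with 4 at an unadjusted p under 0.05. Without young replicate 2, 3 were called, without young replicate 1, 1 of 6, without aged replicate 1 none of 5, and without aged replicate 2 only 2 of 6.

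Most podocytes held none of these UMIs. A UMI of H2-Aa, H2-Ab1, H2-Eb1 or Cd74 was seen in 1.13% and 2.80% of young and 9.49% and 11.04% of aged podocytes. At 1000 UMIs per cell the shares were 0.284%, 0.723%, 1.74% and 0.615%, with overlapping groups. T and NK cells, which at rest should lack class II, gave 0%, 7.5%, 7.14% and 3.90% at the same depth, from 28 to 77 cells per library. Macrophage markers moved with the podocyte values: C1qa, C1qb and C1qc were at 0 in both young libraries, the summed level of the 6 macrophage markers was 0.777 and 0.938 CPM in young and 4.33 and 6.32 CPM in aged podocytes, and their part in the result was not tested. In podocytes without any leukocyte UMI the aged level of Cd74 was 6.38 and 6.95 CPM against 0.869 and 1.17 CPM (log2 fold change 2.80, edgeR adjusted p = 0.00033). This step removed cells by their marker UMIs only, and Cd74 stood at 19699 and 12655 CPM in aged macrophages. A stray Cd74 UMI can lie in a cell without a marker UMI, so the part of leukocyte RNA was not tested here either.

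Endothelial cells line the capillaries and are a known site of inducible class II. H2-Ab1 was their most abundant member, at 11.7 and 24.4 CPM in young and 34.0 and 22.7 CPM in aged libraries. Young replicate 2 lay above aged replicate 2, so the groups overlapped, although edgeR called a rise of 0.84 ± 0.23 SE on the log2 scale (adjusted p = 0.030). Cd74 counted 4.43 and 17.8 CPM in young and 25.8 and 21.8 CPM in aged cells, without overlap, and rose 2.57-fold (log2 fold change 1.36 ± 0.30 SE, edgeR adjusted p = 0.0058). The young libraries differed from each other by more than young replicate 2 differed from the aged ones. H2-Aa stood at 3.48 and 5.33 against 9.12 and 7.68 CPM (edgeR adjusted p = 0.014) and H2-Eb1 at 2.69 and 7.10 against 9.56 and 8.72 CPM (adjusted p = 0.022).

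Of 6 genes tested in endothelial cells, these 4 were called higher, beside 4.13% of 13136 genes (6.2% in either direction), and the median over the 6 was 1.12 on the log2 scale against -0.0064 over all genes. H2-DMa, at 0.792 and 1.52 against 2.05 and 2.27 CPM, and H2-DMb1, at 0.475 and 1.78 against 3.35 and 2.03 CPM, did not pass (edgeR adjusted p = 0.20 and 0.087). The calls were lost in DESeq2 (0 of 6, with 4 at an unadjusted p under 0.05), without a filter on low counts (0 of 7), and when young replicate 1 or young replicate 2 was left out (0 of 6 each), and edgeR called 14, 6 and 0 of all genes in the last 3 settings. Without aged replicate 1, 2 of 6 were called. The difference in the age effect between endothelial cells and podocytes was not called for any of 6 genes (edgeR interaction with library as a block, adjusted p from 0.20 to 1), beside 6.4% of all genes, with 2 of the 6 at an unadjusted p under 0.05. Between endothelial and mesangial cells the lowest adjusted p of an edgeR interaction was 0.13 (5 genes, beside 2.53% of all genes called), between mesangial cells and podocytes 0.18 (5 genes, 4.53%), between podocytes and parietal cells 0.088 (3 genes, 2.01%) and between endothelial and parietal cells 0.72 (5 genes, 1.01%).

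The make-up of class II RNA differed between endothelial cells and leukocytes. H2-Aa had 0.219 to 0.338 UMIs per UMI of H2-Ab1 in endothelial cells of the 4 libraries. The same ratio was 0.691 to 0.880 in dendritic cells, 0.766 to 0.951 in macrophages, 0.737 to 0.997 in monocytes and 0.954 to 1.13 in B cells. Cd74 had 0.378 to 0.960 UMIs per UMI of H2-Ab1 in endothelial cells and 1.65 to 3.99 in these 4 leukocyte classes. In aged podocytes, by contrast, the ratios were 1.08 and 0.700 for H2-Aa and 2.12 and 1.60 for Cd74. For H2-Aa and Cd74 the endothelial ranges lay outside those of the leukocytes, and the podocyte values lay inside or next to them. H2-Eb1 per UMI of H2-Ab1 was also apart, at 0.230 to 0.384 in endothelial cells against 0.511 to 0.931 in these leukocytes. H2-DMa went the other way. Its ratio was 0.0602 to 0.1 in endothelial cells, inside the leukocyte range of 0.0391 to 0.411. In aged podocytes it was 0.48 and 0.3, from 12 and 6 UMIs of H2-DMa.

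H2-Ab1 was higher in endothelial cells than in podocytes of the same library by 3.15 ± 0.22 (SE) on the log2 scale, H2-Aa by 1.48, H2-Eb1 by 1.79 and Cd74 by 1.78 (edgeR with library as a block, adjusted p = 2.6e-07, 0.00043, 3.5e-05 and 1.7e-06). H2-DMa did not pass (0.46, edgeR adjusted p = 0.24). Between these classes 79.1% of 12994 genes were called in either direction, so a call by itself does not set these genes apart. Leaving out each library or all cells with a leukocyte UMI kept these 4 calls, with H2-Ab1 between 2.98 and 3.43. Against mesangial cells H2-Ab1 was higher by 1.52 (edgeR adjusted p = 0.017), beside 59.9% of 12465 genes called in either direction, and by 0.98 without aged replicate 1 (adjusted p = 0.12). With all libraries, H2-Aa, H2-Eb1, Cd74 and H2-DMa did not pass against mesangial cells (0.04, 0.21, 0.06 and 0.67, edgeR adjusted p = 0.94, 0.68, 0.93 and 0.31). Young and aged endothelial cells were not spread alike over the clusters: the one with Lrg1 and Sele among its leading genes counted 183 and 71 cells in young libraries against 2068 and 901 in aged ones, and the one led by Gm14226, Ptpru and Dll4 counted 679 and 287 cells against 355 and 400, before mixed cells were left out. H2-Ab1 had UMIs in each of the endothelial clusters in the aged libraries, from 9.71 to 83.6 CPM. In the cluster led by Tspan8, Thbs2 and Fbln2, it stood at 19.0 and 35.8 CPM in young and 60.1 and 33.0 CPM in aged libraries.

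Leukocyte RNA moved with age in endothelial cells as well. Tyrobp rose 4.36-fold and Fcer1g 3.57-fold (edgeR adjusted p = 0.0033 and 0.00012), 2 of 7 leukocyte genes tested, and the median of the 7 was 1.48 on the log2 scale. The 6 macrophage markers summed to 0.475 and 2.03 CPM in young and 12.7 and 15.8 CPM in aged endothelial cells. Without the cells that held any leukocyte UMI, which left 39.9% to 64.6% of the endothelial UMIs, Cd74 stood at 0.245 and 7.52 CPM in young and 20.5 and 16.6 CPM in aged libraries (log2 fold change 2.82, edgeR adjusted p = 0.0011). H2-Aa and H2-DMb1 rose there too (2.44 and 2.39, edgeR adjusted p = 0.0022 and 0.049), whereas H2-Ab1 (0.84, adjusted p = 0.081) and H2-Eb1 (1.25, adjusted p = 0.086) did not pass. The Cd74 value of young replicate 1 (0.245 CPM) lay under 0.475 CPM, the limit of 3 UMIs over all its endothelial cells. The size of the Cd74 fold without these cells therefore rests on very few counts in that library. Stray class II UMIs can lie in cells without a marker UMI, so the part of leukocyte RNA in these values was not tested. The few cells with 10 or more class II UMIs, 8 and 9 of the aged and 2 and 0 of the young endothelial cells, held 15.7%, 15.4%, 39.7% and 0% of the endothelial class II UMIs of their libraries. Without these cells 2 of the 6 genes were called, H2-Aa and H2-Ab1 (edgeR adjusted p = 0.023 and 0.049), and Cd74 and H2-Eb1 no longer passed (adjusted p = 0.11 and 0.10).

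**Figure D3:**
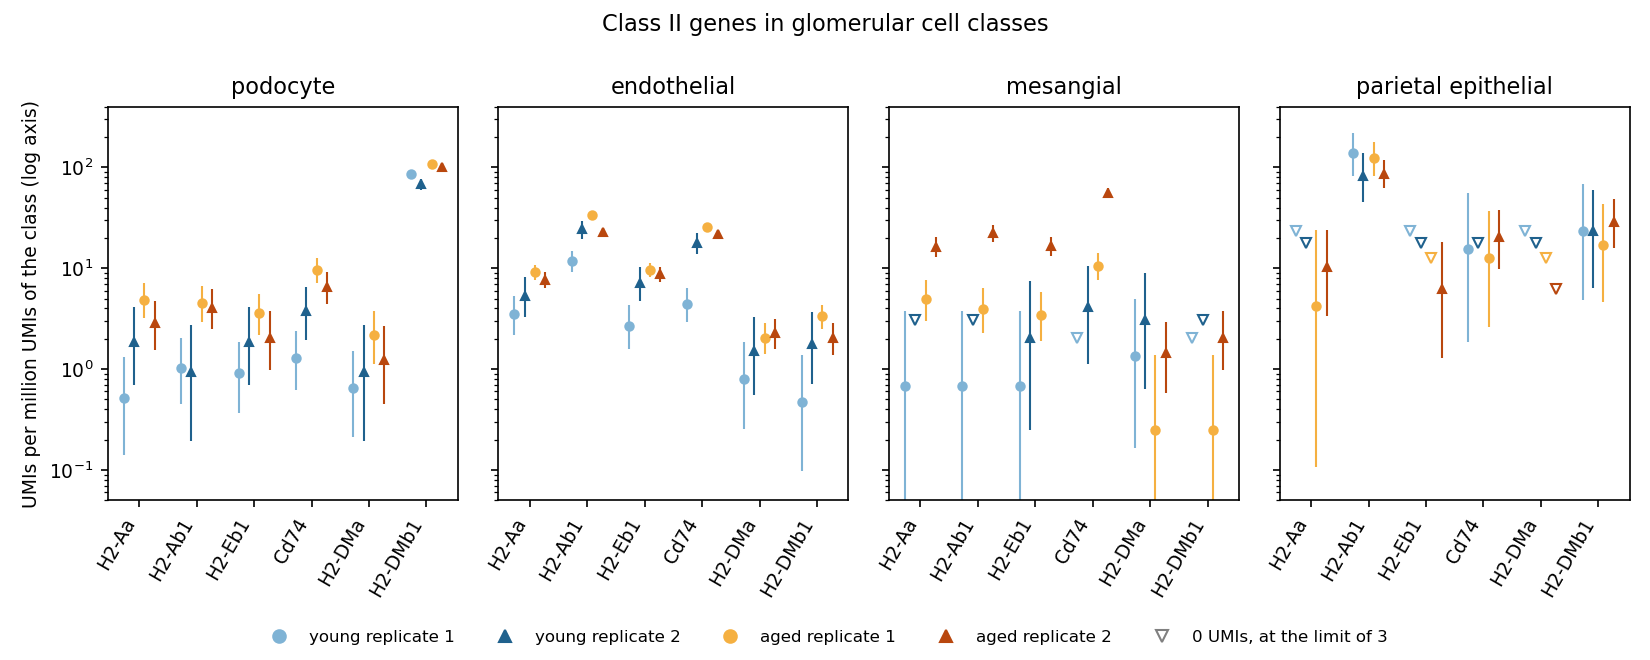
Level of 6 class II genes (x axis) in 4 glomerular cell classes (panels) and 4 libraries (colours), in CPM of the class on a log axis; bars are exact 95% Poisson intervals, some cut off at the lower edge, and open triangles mark 0 UMIs at the limit of 3 counts. H2-DMb1 in podocytes (67.9 to 108 CPM) and H2-Ab1 in parietal epithelial cells (82.4 to 140 CPM) stand above the other genes of their panels.

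Parietal epithelial cells, the lining of Bowman's capsule, had H2-Ab1 as their highest class II gene. H2-Ab1 counted 140 and 82.4 CPM in young and 124 and 86.7 CPM in aged libraries, from 24 to 48 cells each. The groups overlapped, and there was no call for age (log2 fold change -0.09 ± 0.35 SE, edgeR adjusted p = 0.95), beside 2.65% of 3849 genes; it was the only 1 of the 7 that passed the filter on low counts. H2-Aa was at 0 in both young libraries and at 4.26 and 10.3 CPM in the aged ones, and H2-DMa was at 0 in all 4. In both aged libraries H2-Aa had 0.0345 and 0.119 UMIs per UMI of H2-Ab1. H2-DMb1 counted 23.3, 23.6, 17.05 and 28.9 CPM, and Cd74 15.5, 0, 12.8 and 20.6 CPM, from 2, 0, 3 and 10 UMIs. The larger parietal cluster, 83 cells before mixed cells were left out, had a parietal marker level of 0.56, just above the threshold of 0.5. Its podocyte marker level was 0.279, which did not bar the name because the naming rule treated podocytes and parietal cells as related classes. Its mesangial and its smooth muscle and renin levels were 0.205 and 0.191. The smaller parietal cluster, of 67 cells, had a parietal level of 0.936. A further cluster of 48 cells, with a parietal level of 0.699, stayed without a name.

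H2-Ab1 was higher in parietal cells than in podocytes by 5.07 ± 0.37 (SE) and than in endothelial cells by 1.80 ± 0.24 on the log2 scale (edgeR with library as a block, adjusted p = 1.3e-13 and 6.0e-08). These pairs were added after the values had been seen, and 38.7% and 44.3% of all genes were called between the same classes. Leaving out any library kept both calls. H2-DMb1 was lower in parietal cells than in podocytes by 2.21 ± 0.27. All 6 B cell markers were at 0 in parietal cells of every library, and all 6 macrophage markers were at 0 in 3 of the 4, with 2 UMIs in aged replicate 2. With 3 counts as the limit, a 0 allows up to 23.3 and 17.7 CPM per gene in young replicates 1 and 2. In aged replicates 1 and 2 it allows up to 12.8 and 6.19 CPM. Levels below these limits would not be seen, and the part of leukocyte RNA in the H2-Ab1 values was not tested.

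Mesangial cells, the contractile cells between the capillaries, held little class II RNA, and in aged replicate 2 most of it lay in 2 cells. H2-Aa counted 0.679 and 0 CPM in young and 4.94 and 16.4 CPM in aged mesangial cells, and Cd74 0 and 4.10 against 10.6 and 56.1 CPM. H2-Aa was called (log2 fold change 4.68 ± 1.12 SE, edgeR adjusted p = 0.045), 1 of 3 genes tested, beside 2.9% of 10371 genes called higher (4.53% in either direction), and H2-Ab1 and Cd74 did not pass (adjusted p = 0.071 and 0.059). The call of H2-Aa was lost without young replicate 1 or 2 (edgeR adjusted p = 0.35 and 0.33), with DESeq2 (adjusted p = 0.056), with doublets kept (edgeR adjusted p = 0.063) and with mixed cells kept (log2 fold change 0.22, adjusted p = 0.78), while without aged replicate 1 edgeR called 4 of 4. With a young group at or near 0, the fitted fold depends on the prior count. Young and aged mesangial cells came mostly from different clusters: before mixed cells were left out, the cluster led by Gucy1a3, Sfrp2 and Gprin3 held 381 and 249 young but 23 and 17 aged cells, and the cluster led by Cxcl13, Ccl2 and Rab3c held 25 and 13 young but 682 and 541 aged cells. A UMI of H2-Aa, H2-Ab1, H2-Eb1 or Cd74 was seen in 1.15% and 3.41% of young and 12.2% and 14.6% of aged mesangial cells, and in 0%, 1.73%, 2.86% and 2.65% after thinning to 1000 UMIs. In aged replicate 1 the 93 UMIs lay in 77 of 633 cells, none of which had 10 or more. In aged replicate 2, 1 cell held 392 class II UMIs, and 2 of the 494 cells together held 84.0% of them along with 12 C1q UMIs. Without cells of 10 or more class II UMIs no member was called, and Cd74, the only 1 tested, gave 2.49 (edgeR adjusted p = 0.11). Smooth muscle and renin cells showed the same at the other age: in young replicate 2, 5 of 113 cells, all with leukocyte RNA, held 82.5% of the class II UMIs, and Cd74 stood at 348 CPM there against 4.76, 23.7 and 12.5 CPM in the other libraries.

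Levels in glomerular cells were also set against the level of the whole library they came from, beside leukocyte genes treated in the same way. The podocyte level of Cd74 was 0.455% and 0.991% of the whole-library level in young and 0.364% and 0.305% in aged libraries. In endothelial cells it was 1.56% and 4.69% in young and 0.984% and 1.02% in aged libraries, and for H2-Ab1 8.96% and 13.03% against 3.24% and 3.08%. In each of these 3 the aged values lay below the young ones. Leukocyte genes measured in the same way in aged endothelial cells gave 0.568% and 0.612% for C1qa, 0.797% and 0.844% for C1qb, 1.13% and 0.945% for Lyz2 and 0.834% and 1.16% for Tyrobp. Cd74, H2-Aa and H2-Eb1 in aged endothelial cells lay between 0.981% and 1.34%, inside or next to the range of these 4 genes, and H2-Ab1, H2-DMa (2.69% and 3.76%) and H2-DMb1 (3.29% and 2.79%) above it. Fcer1g, not among these 4, took a larger share. In CPM as scaled by edgeR, it stood at 12.0 and 10.3 in aged endothelial cells against 629 and 713 in whole libraries. In young libraries it stood at 3.155 and 3.046 against 71.1 and 135, and Tyrobp at 0.631 and 2.11 against 80.3 and 133. In aged podocytes C1qa, C1qb, Lyz2 and Tyrobp gave 0.147% to 0.406%, and Cd74, H2-Aa, H2-Eb1 and H2-Ab1 0.305% to 0.553%, with H2-DMa, from 12 and 6 UMIs, at 2.84% and 2.02%. The part of carried-over leukocyte RNA in the age differences was not tested. H2-DMb1 in podocytes stood at 198% and 173% of the library level in young and at 107% and 140% in aged libraries.

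**Figure D4:**
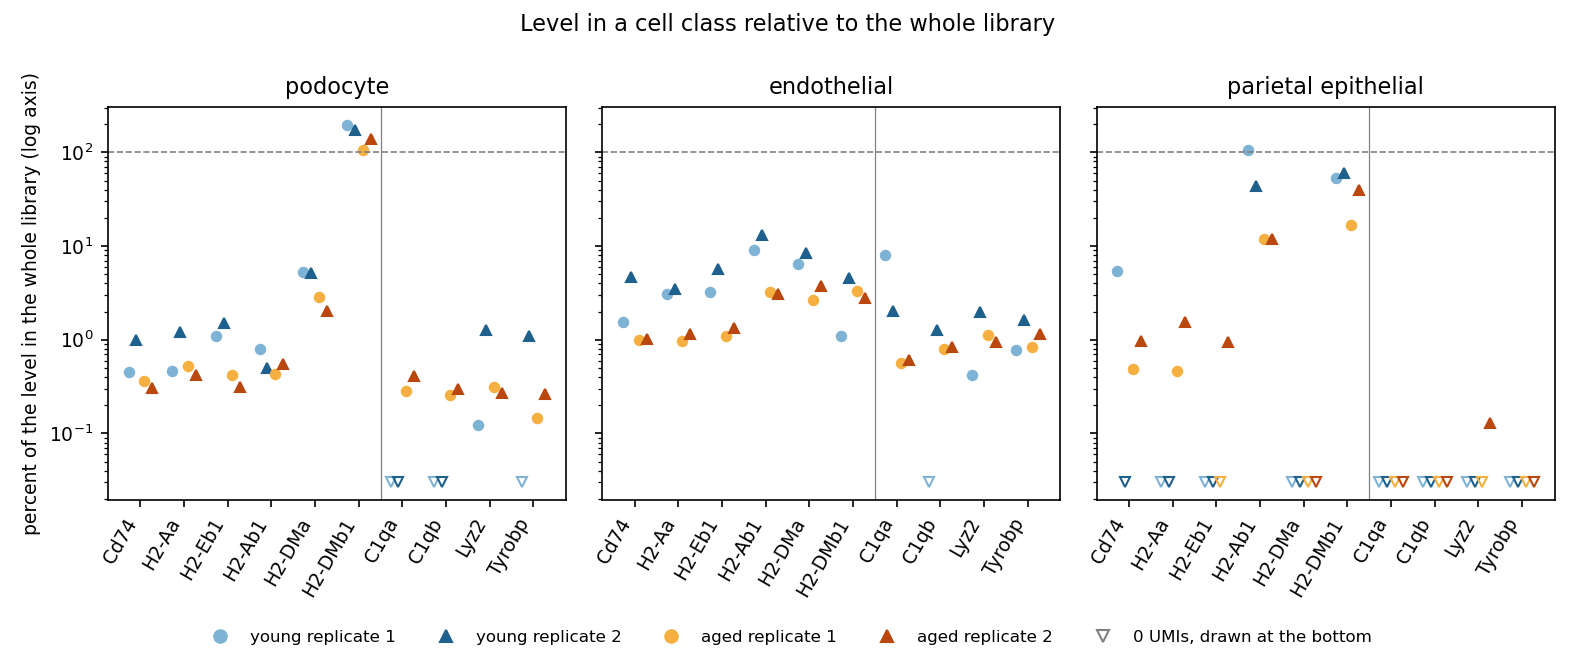
Level of each gene in podocytes, endothelial cells and parietal epithelial cells as a percent of its level in the whole library (log axis, dashed line at 100%), for 6 class II genes and, right of the vertical line, 4 leukocyte genes; points are libraries and open triangles mark 0 UMIs. In podocytes only H2-DMb1 lies above 100% (107% to 198%), and the other class II genes lie at 5.22% or below.

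Ciita was seen in few cells. Aged macrophages held 79.9% and 76.6% of its UMIs, at 34.8 and 19.5 CPM. It had 0 UMIs in podocytes, mesangial, parietal epithelial, smooth muscle and renin, and T and NK cells of all 4 libraries, and 1, 0, 5 and 4 UMIs in endothelial cells. A count of 0 in podocytes allows up to 0.388, 0.938, 0.541 and 0.612 CPM in young replicates 1 and 2 and aged replicates 1 and 2 (3 counts per library). Its partners on the promoter (Rfx5, Rfxap, Rfxank, Nfya, Nfyb, Nfyc and Creb1) were measured in podocytes, endothelial and mesangial cells, and 0 of 7 were called for age by edgeR in each, with a median log2 fold change of -0.17, 0.03 and -0.13. Of all genes tested, 6.48%, 6.2% and 4.53% were called in these classes, so 0 of 7 does not set the factors apart.

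Of the other class II genes, H2-Oa, H2-Ob, H2-DMb2 and H2-Eb2, 0 of 4 were called for age in whole libraries by edgeR, beside 20.3% of all 16496 genes tested. H2-Eb2 had only 11 and 9 UMIs in young and 16 and 16 in aged libraries. H2-Ea-ps, the I-E alpha chain entry, had 0 UMIs in the kept cells of all 4 libraries, so the I-E values are of beta chain RNA only. H2-Ob, the beta chain of the H2-DM inhibitor, counted 3.96, 6.29, 5.69 and 4.13 CPM with overlapping groups. Endothelial cells held 16.7% to 27.9% of the H2-Ob UMIs, at 2.06, 5.07, 3.41 and 2.46 CPM, and 0% to 2.35% of the UMIs of its partner H2-Oa.

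Some genes of antigen processing rose in each of the 3 main glomerular classes. Lgmn, an endosomal protease, rose 1.79-fold in podocytes and 1.57-fold in endothelial cells (edgeR adjusted p = 0.0016 and 0.011). Ctsl, a cathepsin that trims the invariant chain in some epithelial cells, rose 1.47-fold in podocytes and 1.82-fold in mesangial cells (edgeR adjusted p = 0.017 and 0.014). Ctss, which does so in leukocytes, rose in endothelial (5.07-fold) and mesangial cells (19.3-fold, edgeR adjusted p = 0.0078 and 0.0051). Tyrobp and Fcer1g rose in the same endothelial cells, the 8 leukocyte genes summed to 25.1 and 34.8 CPM in young and 58.3 and 78.1 CPM in aged mesangial cells, and their part in the Ctss values was not tested. These were 2 of 7 genes tested in podocytes and 2 of 8 in each of the other classes, and none fell, beside 4.22%, 4.13% and 2.9% of all genes called higher in podocytes, endothelial and mesangial cells. The interferon gamma targets Gbp2 and Gbp5 rose 2.62-fold and 1.83-fold in endothelial cells and 2.77-fold and 2.53-fold in mesangial cells, and Gbp2 2.06-fold in podocytes, where 1 of 6 targets tested was called against 3 of 12 and 2 of 11, beside the same shares of all genes. Cxcl10, a chemokine, was the third endothelial target, at 1.59-fold.

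The interferon gamma pathway itself did not move 1 way. Socs1, a feedback inhibitor, fell in podocytes to 0.358 of the young level (edgeR adjusted p = 3.2e-05), Jak2 rose 1.85-fold in endothelial cells, and Irf1 fell by 0.86 and 1.32 on the log2 scale in mesangial and parietal cells. Each was the only gene of the list called in its class, among 8, 9, 9 and 5 tested. Of all genes, 2.26%, 1.63% and 1.09% were called lower in podocytes, mesangial and parietal cells, and 4.13% higher in endothelial cells. Of 10 class I genes, H2-K1, H2-D1 and B2m rose 3.13-fold, 2.77-fold and 2.41-fold in mesangial cells, Tap1 rose 1.41-fold in endothelial cells and none was called in podocytes. Of all genes, 2.9%, 4.13% and 4.22% were called higher in these classes, so the endothelial and podocyte counts lie near that share. Cd274, the ligand of the inhibitory receptor PD-1, rose 1.82-fold in endothelial and 6.38-fold in mesangial cells, 1 of 4 and 1 of 3 co-stimulation genes tested, beside 4.13% and 2.9% of all genes called higher. In whole libraries, where the share of leukocytes also counts, 6 of 9 antigen-processing genes tested rose (Ctss 7.42-fold, Lgmn 6.65-fold), with 3 of 10 interferon gamma pathway genes (Irf8, Ifngr2 and Jak2), 3 of 12 of its targets (Gbp2, Gbp3 and Gbp5), 8 of 10 class I genes and 4 of 8 co-stimulation genes (Cd86 8.71-fold), and none fell by edgeR, beside 11.8% of all genes called higher (20.3% in either direction). In monocytes Ctsd and Lgmn rose 3.17-fold and 2.16-fold, and in T and NK cells Irf8 fell by 2.17 on the log2 scale (edgeR adjusted p = 0.0058, 0.023 and 0.011).

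Across 38 sums of cells by class and library, the genes most like the mean of H2-Aa, H2-Ab1, H2-Eb1 and Cd74 were Ly86 (Pearson r = 0.956 of log2 CPM), Pkib (0.927), Wdfy4 (0.927), Cd86 (0.919) and Erp29 (0.913), of 14792 genes compared. The sums share libraries and include both leukocyte and glomerular classes.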

How the data were processed

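The authors deposited, per the labels' protocols, raw UMI counts per gene and barcode, with no normalization, from 10x 3' libraries aligned to GRCm38. The labels' protocols name Cell Ranger 3.1.0, and the file headers and the submitters' processing notes name 6.0.1. Partek is named with no role. The lowest barcode total was 500 UMIs. Whether counting used strand is not given in the sources used here.

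Barcodes with at least 500 genes and at most 20% mitochondrial UMIs were kept, and 1876 of 29876 (6.28%) were removed as likely doublets by Scrublet scores in scanpy 1.11.5, at 0.8% per 1000 barcodes, since its own threshold marked 134. Clustering (2000 variable genes without class II genes, 30 components, 15 neighbours, leidenalg 0.10.2, resolution 1) gave 33 clusters, 25 of them named from markers with thresholds set after the data were seen (own marker level of at least 0.5 and an unrelated class under 0.4 of it). The rule for a named gene was the 7 genes everywhere, called genes of the lists, and the 5 most alike genes. Members and lists were chosen with earlier results of these data known.

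UMIs were summed per class and library and tested with edgeR 4.0.16 in R 4.3.3 (TMM, default filter on low counts, age as the only term, Benjamini-Hochberg over all genes, threshold 0.05), for classes with at least 20 cells in each library. CPM values are plain sums, and fold changes come from edgeR. Class differences had library as a block. DESeq2 1.42.0, other filters, left-out libraries and left-out cells were alternatives. Poisson and binomial intervals (95%) cover counting error only. The edgeR age tests in podocytes and endothelial cells were checked on simulated counts. Changed genes there had a mean of at least 20 UMIs, and all genes were given the same spread between libraries. The check does not cover genes with lower counts, such as H2-Aa and H2-Ab1 in podocytes.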

Additional observations from a re-analysis of the deposited data

How the results depend on the processing

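The whole-library rise kept 7 of 7 calls under every alternative except leaving out either young library (6 of 7, H2-DMb1 being lost). The class results were less stable. In podocytes 4 of 5 calls became 0 with DESeq2 and 0 to 3 when a library was left out, and 3 with mixed cells kept or without cells that hold a leukocyte UMI, H2-DMb1 being lost in both. In endothelial cells 4 of 6 became 0 with DESeq2, 0 without a filter on low counts, 2 without cells of 10 or more class II UMIs, and 0 to 5 when a library was left out. In mesangial cells 1 of 3 became 4 of 6 without a filter on low counts, 0 with doublets kept, 0 with mixed cells in named clusters kept, 0 without cells that hold a leukocyte UMI (none tested), 0 without cells with 10 or more class II UMIs, and 0 to 4 when a library was left out. In monocytes 0 became 4 without a filter on low counts and 0 to 4 when a library was left out. The cause was not tested. With the replicate number as a block, which the labels do not say pairs the libraries (same-numbered libraries correlated at 0.04 to 0.106), the called members numbered 4 in podocytes, 0 in parietal cells, 5 in endothelial cells, 3 in mesangial cells, 2 in monocytes, 0 in B cells and 7 in whole libraries.

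Genes called over all alternatives ran from 271 to 957 in podocytes (702 as reported), 0 to 1423 in endothelial cells (814), 0 to 1821 in mesangial cells (470), 29 to 220 in monocytes (87) and 684 to 4293 in whole libraries (3347). Values near 0 changed sign. H2-Ab1 in parietal cells gave 0.080 without a filter on low counts, 0.017 without cells that hold a leukocyte UMI and -0.44 to 0.35 when a library was left out. In monocytes H2-DMb1 gave -0.058 with the replicate block, -0.076 with class II genes kept in the clustering, -1.1e-05 with doublets kept and -0.74 to 0.60 when a library was left out, and H2-DMa gave -0.75 to 0.33. In B cells the ranges over left-out libraries were -0.48 to 0.41 for H2-DMa, -0.21 to 0.048 for H2-Ab1, -0.062 to 0.28 for H2-Aa, -0.00058 to 0.13 for H2-Eb1 and -0.073 to 0.50 for Cd74. The class difference of H2-Ab1 between endothelial and mesangial cells ran from 0.98 to 3.40 over left-out libraries, and all class differences of H2-DMb1 kept their call. Depth limits what can be said of low genes, as for Cd74 in podocytes, which rested on 10 to 53 UMIs per library.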

Other observations

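Cells that could not be given a class held class II RNA in all 4 libraries. Their summed level of H2-Aa, H2-Ab1, H2-Eb1 and Cd74 was 525 and 674 CPM in young and 2977 and 2094 CPM in aged libraries, beside 611, 845, 5471 and 4204 CPM in whole libraries. They numbered 262 and 4503 in young and 356 and 251 in aged libraries.

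The 6 macrophage markers, Mrc1 among them, summed to 484 and 519 CPM in young and 460 and 314 CPM in aged mesangial cells, while Adgre1 and Fcgr1 were at 0 in all 4 libraries.

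T and NK cells of young replicate 2 held Cd74 at 252 CPM and the 6 B cell markers at 60.9 CPM, against 0, 47.9 and 26.2 CPM of Cd74 and 0, 7.98 and 5.23 CPM of B cell markers in the other libraries. Neutrophils of the aged libraries, at 64 and 22 cells, held 812 and 374 CPM of the 4 class II genes.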
